A study of Homo sapiens with 14 samples.

Results

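RNA polymerase II (RNAPII) occupancy of genes was compared between 16 h and 19 h in DMSO-treated BJ hTERT cells, the vehicle arm of a study that, by its design line, concerns ATR inhibition and RNAPII during S phase. BJ hTERT is an established human cell line, foreskin fibroblasts that were made immortal by telomerase. The comparison rests on 4 of the 14 chromatin immunoprecipitation sequencing (ChIP-seq) libraries: total RNAPII at 16 h and 19 h, precipitated with an antibody to the N-terminal domain of RPB1, and Ser2 RNAPII at 16 h and 19 h, precipitated with an antibody to RPB1 phosphorylated on serine 2 of its repeats. Each of the 4 groups, total 16 h DMSO, total 19 h DMSO, Ser2 16 h DMSO and Ser2 19 h DMSO, is 1 library. The ATRi libraries of the same hours and antibodies, also 1 per group, are set beside them. The event from which the hours are counted, a synchronisation step and the identity and dose of the inhibitor are not given in the sources used here, and the immunoprecipitation protocol in the labels names antibodies to other proteins than RPB1. Genes entered with a mean of at least 1 read per 1000000 library reads (RPM) over the pair, which kept 12047 of 12411 nuclear genes for total RNAPII and 11993 for Ser2. The genes nearest to this minimum had means of 1.00 RPM inside and 0.991 RPM outside it for total RNAPII, and 1.00 and 0.998 RPM for Ser2.

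RNAPII transcribes the protein-coding genes, most long noncoding RNAs and most spliceosomal snRNAs. Its largest subunit, RPB1, ends in a repeated domain that is phosphorylated on serine 2 as the polymerase moves through the gene body, so that a Ser2 signal is read as engaged, elongating polymerase, while the antibody to the N-terminal domain reads polymerase in any state. In cycling cells, E2F factors drive genes of replication licensing and of the replication fork around entry into S phase, and the MuvB complex bound to B-MYB and FOXM1 activates mitotic genes later in the cycle, which the DREAM complex, MuvB with p130 and E2F4, represses in resting and early G1 cells. Growth factor signals induce immediate early genes such as EGR1, and inflammatory signals act through NF-kB.

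The 4 libraries held 26482785 (total, 16 h), 35871568 (total, 19 h), 38269525 (Ser2, 16 h) and 30193468 reads (Ser2, 19 h), and the median nuclear gene held 596 to 1276 reads. The share of all reads that lay in nuclear genes differed more between the hours than between the antibodies. It was 49.4% at 16 h and 72.0% at 19 h for total RNAPII, and 35.8% and 63.5% for Ser2 (exact Clopper-Pearson 95% intervals of at most 0.0190 percentage points to either side, counting error only). In the ATRi libraries it was 52.0% and 70.8% for total RNAPII, and 37.1% and 65.6% for Ser2. The median gene accordingly held 1.5-fold more RPM at 19 h than at 16 h in total RNAPII and 1.87-fold more in Ser2. Changes below are therefore log2((RPM at 19 h + 0.5)/(RPM at 16 h + 0.5)) minus the median over all genes of the pair, 0.58 for total RNAPII and 0.90 for Ser2, and are called the centred change. A gene counts as called when its centred change reaches 1.5-fold. With 1 library per group there is no replicate error, no test was made and no p-value is given. Whether the share of reads in genes reflects the cells or the precipitation was not tested.

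The fibroblast label was checked against marker genes. Of 14 fibroblast markers 12 were in the table, and 11 of them had a read density (RPM per kb of gene) at or above that of the median gene in all 4 libraries. Of 16 keratinocyte markers 5 were in the table, of 16 endothelial and blood markers 2 (TEK and VWF), and of 8 melanocyte markers 1 (MITF), and none of these 8 genes reached the median density in all 4 libraries. TEK, a receptor of endothelial cells, and VWF, the clotting factor they secrete, had densities between 0.0867 and 0.304 RPM per kb.

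Promoter sequences of 8 genes described below are shown first, as examples of the DNA motifs of factors known to act on their gene groups. They were chosen because they hold a match. Each is the 250 bases before the RefSeq gene start on GRCh38.p14, read on the gene's strand, with matches on either strand in capitals. The motifs were CArG (bound by SRF) in EGR1, NF-kB in IL6 and NFKBIA, the cell cycle homology region TTTGAA (CHR, bound through MuvB) in CKAP2L and KIF23, and the E2F motif TTTCCCGC or TTTGGCGC in MCM6, MCM3 and E2F1.
EGR1, chr5:138465229-138465478, plus strand, CArG: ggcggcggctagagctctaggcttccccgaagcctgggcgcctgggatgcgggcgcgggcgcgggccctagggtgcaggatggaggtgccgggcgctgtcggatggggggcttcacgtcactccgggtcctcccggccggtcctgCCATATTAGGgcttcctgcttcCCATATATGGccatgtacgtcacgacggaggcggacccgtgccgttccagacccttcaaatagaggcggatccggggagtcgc
IL6, chr7:22726950-22727199, plus strand, NF-kB: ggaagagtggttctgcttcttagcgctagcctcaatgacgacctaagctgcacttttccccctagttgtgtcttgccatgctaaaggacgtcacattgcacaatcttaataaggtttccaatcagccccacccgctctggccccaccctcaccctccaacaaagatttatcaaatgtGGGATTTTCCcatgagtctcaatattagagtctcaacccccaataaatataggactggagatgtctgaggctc
NFKBIA, chr14:35404750-35404999, minus strand, NF-kB: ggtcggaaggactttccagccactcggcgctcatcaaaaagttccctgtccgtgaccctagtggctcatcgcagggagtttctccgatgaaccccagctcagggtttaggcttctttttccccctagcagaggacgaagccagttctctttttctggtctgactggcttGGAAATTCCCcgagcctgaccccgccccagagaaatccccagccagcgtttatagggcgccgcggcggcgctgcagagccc
CKAP2L, chr2:112764610-112764859, minus strand, CHR: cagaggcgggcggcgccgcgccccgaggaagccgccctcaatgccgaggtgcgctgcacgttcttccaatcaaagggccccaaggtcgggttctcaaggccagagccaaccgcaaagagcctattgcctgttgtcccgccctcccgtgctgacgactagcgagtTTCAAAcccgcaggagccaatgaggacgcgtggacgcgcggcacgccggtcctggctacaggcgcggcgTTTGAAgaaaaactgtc
KIF23, chr15:69414099-69414348, plus strand, CHR: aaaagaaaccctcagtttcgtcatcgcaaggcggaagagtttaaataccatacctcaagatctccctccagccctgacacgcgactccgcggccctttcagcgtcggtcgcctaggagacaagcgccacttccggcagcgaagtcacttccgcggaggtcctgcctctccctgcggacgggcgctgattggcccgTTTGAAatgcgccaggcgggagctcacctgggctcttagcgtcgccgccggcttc
MCM6, chr2:135876444-135876693, minus strand, E2F: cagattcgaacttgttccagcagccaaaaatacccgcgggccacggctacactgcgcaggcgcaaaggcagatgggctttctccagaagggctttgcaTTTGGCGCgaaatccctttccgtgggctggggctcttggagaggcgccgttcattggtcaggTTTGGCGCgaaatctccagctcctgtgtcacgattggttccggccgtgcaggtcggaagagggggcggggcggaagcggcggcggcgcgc
MCM3, chr6:52284743-52284992, minus strand, E2F: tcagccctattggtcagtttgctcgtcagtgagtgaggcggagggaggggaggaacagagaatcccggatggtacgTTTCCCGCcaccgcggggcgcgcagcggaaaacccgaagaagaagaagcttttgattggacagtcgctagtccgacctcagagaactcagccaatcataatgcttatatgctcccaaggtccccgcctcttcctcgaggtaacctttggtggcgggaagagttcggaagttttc
E2F1, chr20:33686386-33686635, minus strand, E2F: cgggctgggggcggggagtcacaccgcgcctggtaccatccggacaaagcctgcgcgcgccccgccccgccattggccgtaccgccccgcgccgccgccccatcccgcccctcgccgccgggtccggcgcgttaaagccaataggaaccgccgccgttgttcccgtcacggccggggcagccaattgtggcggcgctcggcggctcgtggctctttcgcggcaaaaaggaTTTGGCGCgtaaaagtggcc
EGR1 had 2 CArG matches, which began 105 and 83 bases before the gene start, and MCM6 had 2 E2F matches, at 152 and 90 bases.

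Motif matches were counted over the 8579 measured genes whose promoter could be matched by symbol. The E2F motif was in 3.31% of all these promoters and in 6 of 23 (26.1%) of the licensing list, as in 6 of 23 (26.1%) of the replication fork list. CHR was in 8.19% of all promoters and in 30 of 60 (50.0%) of the mitotic list. The NF-kB motif was in 5.89% of all promoters and in 7 of 18 (38.9%) of the NF-kB, cytokine and interferon list, and CArG was in 1.04% of all and in 3 of 25 of the actin and contractile list. Of the 12 densely read genes named below as highest, 11 had a promoter in the table, and among these the NF-kB and E2F motifs were in 0, CHR in 2 and CArG in 1, that of EGR1. The promoters of PTGS2 and NFKB2 were among those without an NF-kB match. These matches describe the letters of the promoters and say nothing of binding in these cells.

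EGR1, MOCS2, MIR31HG, PTGS2 and TPP1 were among the genes furthest above the median gene at 19 h in both antibodies. More genes were called lower than higher. In total RNAPII, 418 genes (3.47% of those measured) were called higher and 1349 (11.2%) lower, and in Ser2 1393 (11.6%) were called higher and 2060 (17.2%) lower. Of the 11980 genes measured with both antibodies, 352 (2.94%) were called higher in both and 1258 (10.5%) lower in both. Those 352 genes were 84.6% of the 416 called higher in total RNAPII and 25.3% of the 1393 called higher in Ser2, and the 1258 were 94.0% of the 1339 called lower in total RNAPII and 61.3% of the 2052 in Ser2. Across genes, the centred changes in the 2 antibodies had a Pearson correlation of 0.90, a description over genes that are not independent and of libraries that share the cells' hours.

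The change followed how densely a gene was read. In the decile of genes with the lowest density the median centred change was -0.87 in total RNAPII and -1.18 in Ser2, and 76.8% and 84.9% of them were called lower. The medians of total RNAPII were higher in each denser decile up to the last but one, at 0.25, with 0.22 in the densest, and those of Ser2 were higher up to the densest decile, at 0.63. Gene length moved with it: the shortest decile, with a median length of 2.47 kb in total RNAPII, had a median change of 0.15 in total RNAPII and 0.34 in Ser2, and the longest decile, with a median of 244 kb, had -0.43 and -0.59. With the trend over density taken out, which is called the density-adjusted change below, the length deciles had medians between -0.04 and 0.02 in total RNAPII and between -0.15 and 0.03 in Ser2. Density-adjusted, 339 genes (2.81%) were called higher and 189 (1.57%) lower in total RNAPII, and 478 (3.99%) higher and 185 (1.54%) lower in Ser2, and 190 (1.59%) higher and 88 (0.735%) lower in both. These counts include the 342 genes of chromosome X, which were not set apart. Their density-adjusted medians were 0.34 in total RNAPII and 0.58 in Ser2, the latter close to the 1.5-fold call. The excess of higher over lower genes on this scale is therefore not read as a result. With an estimate of background density subtracted instead, 665 (5.83%) were higher and 808 (7.09%) lower in total RNAPII, 873 (7.81%) higher and 1613 (14.4%) lower in Ser2, and 327 (2.95%) higher and 606 (5.47%) lower in both. Density-adjusted medians are given for the gene lists beside the centred ones, because the 2 scales differ for whole lists.

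**Figure D1:**
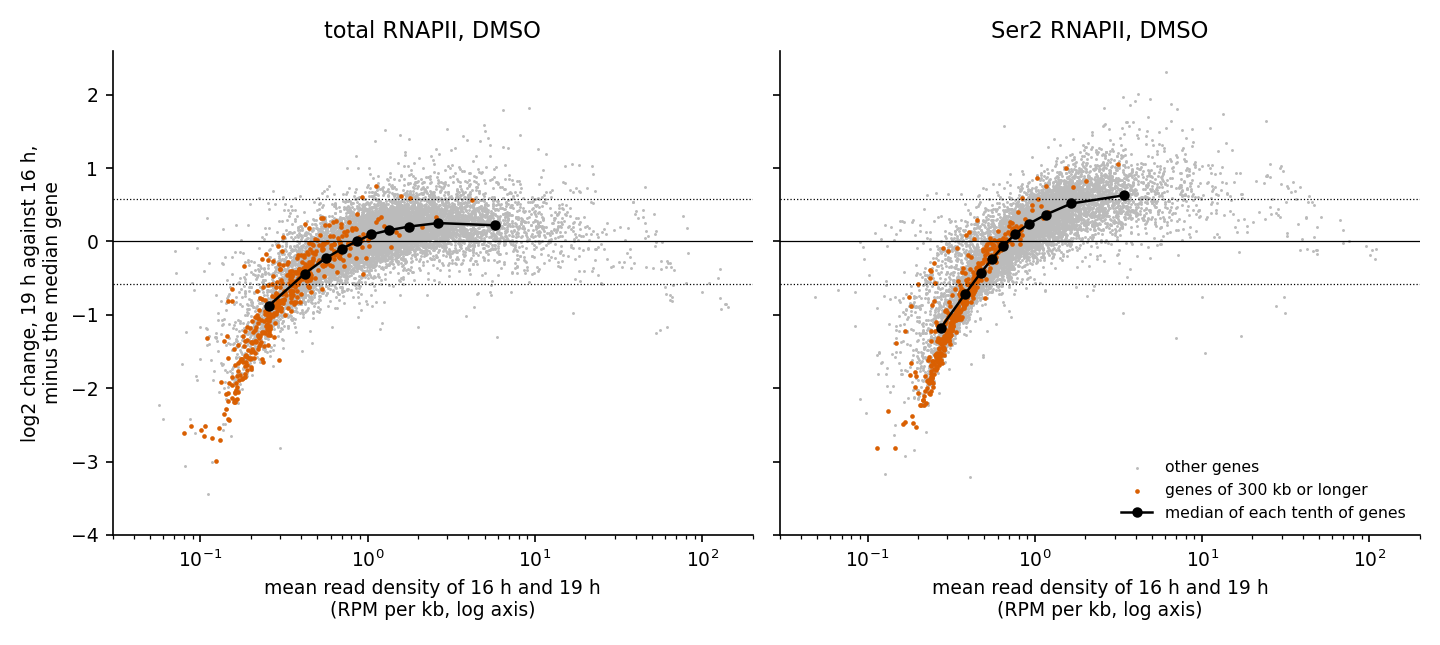
Centred log2 change of each gene from 16 h to 19 h in DMSO (y axis) against its mean read density in RPM per kb (x axis, log scale), for total RNAPII (left) and Ser2 (right). Black points are medians of deciles of the genes, which go from -0.87 to 0.22 in total RNAPII and from -1.18 to 0.63 in Ser2; dotted lines mark 1.5-fold, and orange points are genes of 300 kb or longer.

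EGR1, an immediate early zinc finger transcription factor, had the largest centred change of the genes under the naming rule in both antibodies. Its gene (ENSG00000120738, chr5:138465490-138469315, hg38) held 10.95 RPM of total RNAPII at 16 h and 59.96 RPM at 19 h, and 4.10 and 42.3 RPM of Ser2. The 19 h libraries were the high ones in both antibodies. The centred change was 1.82 in total RNAPII (95% counting interval 1.69 to 2.05, computed on the reads without the 0.5 RPM that the change adds) and 2.32 in Ser2 (2.22 to 2.71), or 3.52-fold and 4.98-fold. Density-adjusted it was 1.62 and 1.69. PTGS2, the inducible cyclooxygenase of prostaglandin synthesis, went from 27.3 to 114 RPM in total RNAPII and from 14.0 to 99.2 RPM in Ser2. Its centred changes were 1.46 and 1.88 (1.24 and 1.252 density-adjusted), with the 19 h library again the high one in both antibodies. The half-width of the counting interval over the 174 genes covered by the naming rules had a median of 0.13 in total RNAPII and 0.15 in Ser2.

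MOCS2, which encodes both subunits of molybdopterin synthase, went from 25.7 to 117 RPM in total RNAPII and from 13.6 to 106 RPM in Ser2, centred changes of 1.58 and 2.02 (1.32 and 1.38 density-adjusted). ITGA2, the collagen-binding integrin alpha 2 subunit, lies 900 bp from it in RefSeq and had centred changes of 1.53 and 1.82, so both neighbours were high at 19 h. MIR31HG, the host RNA of miR-31 (chr9:21455642-21559669), went from 153 to 624 RPM and from 84.3 to 618 RPM, changes of 1.44 and 1.96 (1.18 and 1.32 density-adjusted). The interferon gene IFNE lies inside its span and had 1.4 and 1.06, and how the authors divided reads between overlapping genes is not given in the sources used here. TPP1, a lysosomal protease, went from 12.6 to 55.2 RPM and from 6.64 to 40.8 RPM, with changes of 1.51 and 1.63 (1.249 and 0.99 density-adjusted). Its neighbours within 5 kb were also above the median gene: ILK, a kinase of integrin adhesions, had 0.82 and 1.22, TAF10, a subunit of TFIID, 0.42 and 0.96, and DCHS1, a large cadherin, 0.68 and 0.23.

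MMP14, a membrane-anchored matrix metalloproteinase, went from 37.2 to 136 RPM in total RNAPII and from 18.1 to 98.6 RPM in Ser2 (centred 1.27 and 1.51, density-adjusted 1.04 and 0.89). NT5E, the ecto-5'-nucleotidase CD73, went from 94.0 to 318 RPM and from 47.9 to 278 RPM (centred 1.17 and 1.62, density-adjusted 0.91 and 0.98). PLAT, tissue plasminogen activator, went from 46.1 to 169 RPM and from 25.1 to 141 RPM (centred 1.28 and 1.57, density-adjusted 1.00 and 0.96). TGM2, a protein-crosslinking transglutaminase, stood out more in total RNAPII than in Ser2, with centred changes of 1.52 and 1.04. The other genes that led were UTP25, of the small ribosomal subunit processome (1.19 and 1.49), GSTO2, a glutathione transferase (1.26 and 1.44), TMEM158 (1.16 and 1.31) and FLOT1, a flotillin (1.37 and 1.57). At 16 h FLOT1 held 101 reads of Ser2, or 0.176 RPM per kb. That is below the estimate of background density given below, 0.273 RPM per kb. Beside GSTO2, ITPRIP, 4755 bp away, had 0.95 and 1.47, and FLOT1 lies 466 bp from the immediate early gene IER3, which is not analysed here. The 13 genes that the rule names as highest in either antibody include NFKB2 and RELB, described below, but not GSTO2 and TMEM158. All 13 were also above the median gene from 16 h to 19 h in the ATRi cells, by 0.46 to 1.56 in total RNAPII and by 0.78 to 2.07 in Ser2.

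**Figure D2:**
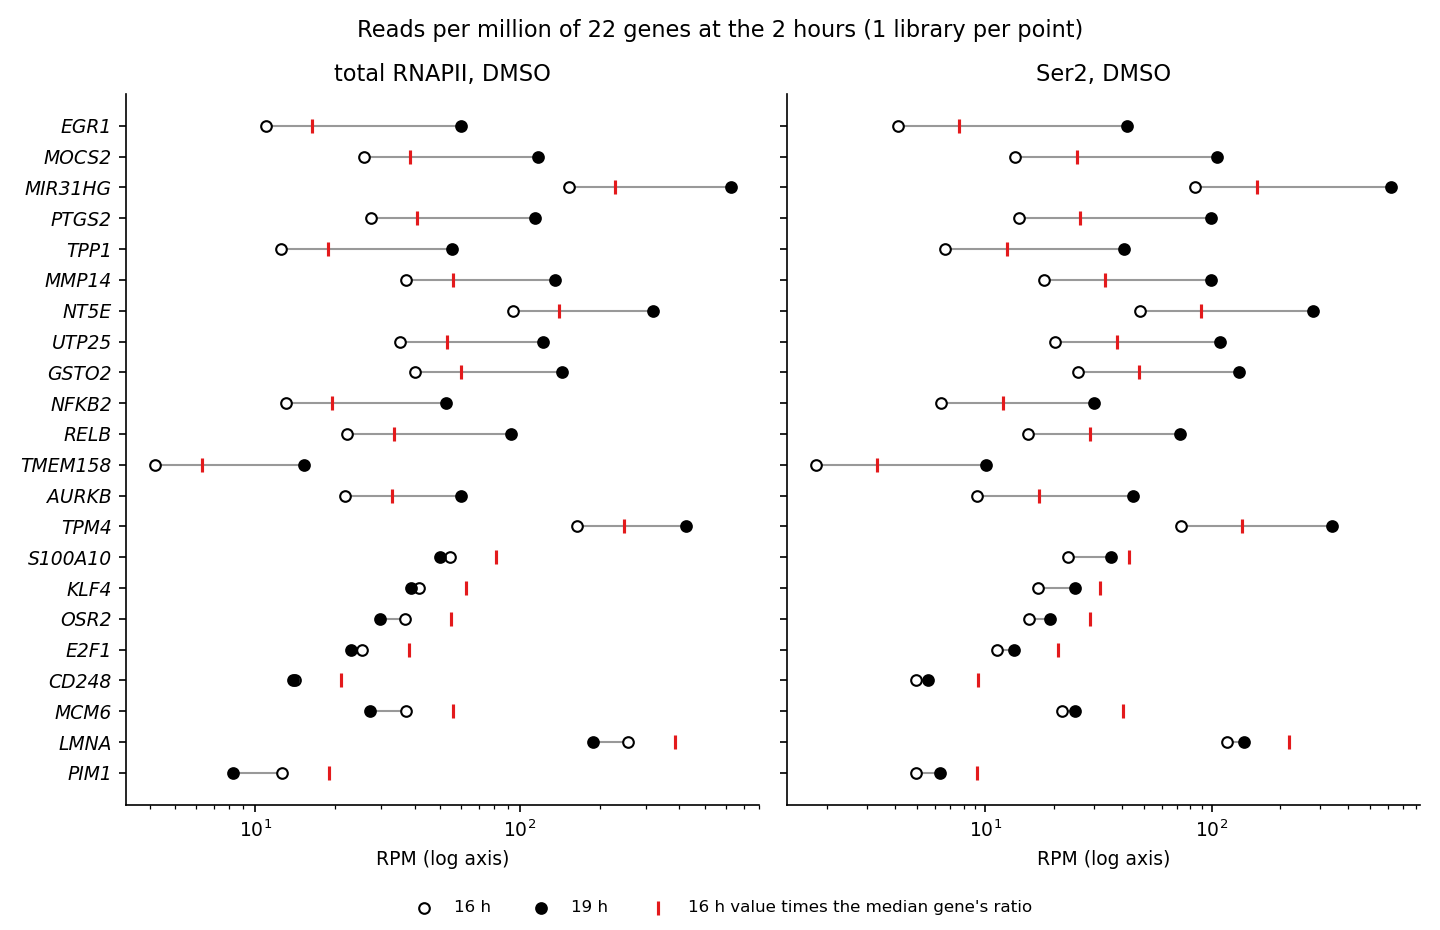
RPM of 22 genes in the DMSO libraries at 16 h (open points) and 19 h (filled points), on log axes, for total RNAPII (left) and Ser2 (right). The red bar is the 16 h value times the median gene's ratio: the 14 genes from EGR1 to TPM4 lie to its right at 19 h in both antibodies, and the 8 genes from S100A10 to PIM1 lie to its left.

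The lowest centred changes belonged to long genes that were read at the lowest densities. The 12 genes the rule names as lowest in either antibody (NPAS3, KIAA1217, TMEM178B, CDH4, TMEM132B, PDE4D, PPM1L, SLIT3, ANK2, RASGEF1C, WWOX and REPS2) were 108 to 1553 kb long. NPAS3, a neuronal transcription factor, went from 183 to 33.9 RPM in total RNAPII and from 258 to 82.9 RPM in Ser2, centred changes of -2.997 and -2.53. CDH4, R-cadherin, went from 88.8 to 21.4 RPM and from 124 to 32.5 RPM, changes of -2.61 and -2.82. Over their length, however, the 12 genes held only 0.0941 to 0.234 RPM per kb of total RNAPII at 16 h and 0.0247 to 0.0766 at 19 h, against 0.731 and 1.15 RPM per kb for the median gene. An estimate of background density, the 5th percentile over genes of at least 10 kb, was 0.262 RPM per kb at 16 h and 0.205 at 19 h in total RNAPII, above all 12 genes. In Ser2 the estimate was 0.273 at 16 h and 0.231 at 19 h, and the 12 genes held 0.144 to 0.318 and 0.0472 to 0.162 RPM per kb, so that some lay above it at 16 h and all below it at 19 h. None of the 12 kept a value once background was subtracted. In the ATRi cells the 12 genes were lower too, by 1.81 to 2.40 in total RNAPII and by 1.92 to 2.95 in Ser2. Of the 418 genes of at least 300 kb, 218 (52.2%) were called lower in total RNAPII and 259 (62.0%) in Ser2. Over all genes these shares were 11.2% and 17.2%. As a group the 418 genes had a median centred change of -0.62 in total RNAPII and -0.81 in Ser2, but a density-adjusted median of -0.04 and -0.02. Their median density was 0.334 RPM per kb at 16 h and 0.330 at 19 h in total RNAPII.

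To describe genes that were lower relative to the median gene at densities above the background estimate, a separate ranking was made. It took genes with a density at or above the median gene in all 4 libraries, a rule added after the values had been seen. Of the 3019 such genes under the filters, 131 were higher by at least 0.32 (log2) in both antibodies after density adjustment and 130 lower by as much, and the 12 at each end are named. Those at the lower end were PIM1, LMNA, OSR2, E2F1, CD248, KLF4, NBPF1, S100A10, PPP1R3C and 3 U5 snRNA genes. LMNA, which encodes the nuclear lamins A and C (chr1:156082573-156140089), went from 256 to 189 RPM of total RNAPII and from 117 to 138 RPM of Ser2. The total RNAPII library was thus lower at 19 h even in RPM, while Ser2 was slightly higher in RPM and lower only relative to the median gene. The centred changes were -1.02 and -0.66, leaving 49.3% and 63.3% of the 16 h level relative to the median gene, and the density-adjusted ones -1.28 and -1.23. MEX3A, which encodes an RNA-binding protein, lies 108 bp away and was lower as well, at -1.49 and -2.14.

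PIM1, a serine/threonine kinase induced by cytokines, went from 12.6 to 8.25 RPM of total RNAPII and from 4.91 to 6.33 RPM of Ser2 (centred -1.17 and -0.57, density-adjusted -1.39 and -0.90). OSR2, a zinc finger factor of limb and palate mesenchyme, went from 36.7 to 29.5 RPM and from 15.5 to 19.3 RPM (centred -0.89 and -0.60, density-adjusted -1.15 and -1.17). CD248, or endosialin, a stromal fibroblast surface protein, went from 14.1 to 13.9 RPM and from 4.94 to 5.60 RPM (centred -0.60 and -0.74, density-adjusted -0.85 and -1.31). These 3 genes and LMNA were lower relative to the median gene in both antibodies and, as the ATRi values show, in both treatments: -1.81 and -1.18 for PIM1, -0.91 and -0.66 for OSR2, -0.79 and -1.0 for CD248, and -0.99 and -0.63 for LMNA. KLF4, a Krüppel-like factor, was at -0.68 and -0.38, and S100A10, the annexin A2 partner, at -0.70 and -0.27. NBPF1 (60.8 to 71.9 and 54.3 to 63.7 RPM) and PPP1R3C (6.80 to 8.22 and 3.29 to 4.34 RPM) were higher at 19 h in RPM with both antibodies. They were lower only relative to the median gene. NBPF1 belongs to a family of near-identical copies, between which its reads may be split.

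Replication genes lay below the median gene in total RNAPII. Of the 27 measured genes of origin licensing and firing, 23 were below the median gene in total RNAPII and 14 in Ser2, with medians of -0.15 and -0.01, and 1 and 2 were called lower, a smaller share than the 11.2% and 17.2% of all genes. Density-adjusted, 24 and 24 of 27 were below 0, with medians of -0.28 and -0.18. MCM6, a subunit of the replicative helicase, whose promoter holds 2 E2F matches, went from 37.3 to 27.2 RPM of total RNAPII and from 21.7 to 24.9 RPM of Ser2. Total RNAPII was lower at 19 h in RPM, and Ser2 was lower only relative to the median gene, with centred changes of -1.03 and -0.71. MCM3, another subunit, was at -0.51 and -0.21, MCM10, a replication initiation factor, at -0.52 and -0.44, and ORC4, of the origin recognition complex, at -0.46 and -0.73. ORC4 alone of these 4 lost its difference after density adjustment (0.01 and -0.04). The list's medians in ATRi cells were -0.02 and -0.07.

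The 28 measured genes of the replication fork and the DNA polymerases had medians of -0.14 in total RNAPII and 0.05 in Ser2, and -0.22 and -0.12 density-adjusted, with 24 and 24 members below 0. None was called in total RNAPII, and 3 were called higher and 1 lower in Ser2, against 11.6% and 17.2% of all genes. RFC3, a clamp loader subunit, was at -0.50 and -0.57, and FAM111A, a protease that acts at the fork, at 0.56 and 0.93, so that members lay on both sides. The 21 genes of nucleotide supply had medians of -0.01 and 0.17, density-adjusted -0.15 and -0.08, and the 18 of chromatin assembly and maintenance methylation 0.07 and 0.18, density-adjusted -0.15 and -0.15. Over the 40 measured checkpoint and repair genes the medians were 0.01 and 0.06, density-adjusted -0.06 and -0.03.

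The E2F genes themselves went apart. E2F1, which drives S-phase genes, went from 25.3 to 22.9 RPM of total RNAPII and from 11.2 to 13.3 RPM of Ser2, centred -0.73 and -0.66. E2F7, a repressor of E2F target genes, went from 99.2 to 248 RPM and from 47.9 to 213 RPM, centred 0.73 and 1.24. Density-adjusted the values were -0.95 and -1.06 for E2F1 and 0.48 and 0.58 for E2F7, so the 2 stayed on opposite sides. NECAB3, 335 bp from E2F1, was at -0.01 and 0.41. Over the whole list of 20 measured E2F, RB and cyclin genes the medians were 0.03 and 0.13 (density-adjusted -0.04 and -0.08), with TFDP2, an E2F dimerisation partner, lowest at -1.17 and -1.43 (-0.20 and -0.28 density-adjusted).

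Genes of G2 and mitosis lay above the median gene. Of 68 measured members, 61 in total RNAPII and 53 in Ser2 were above it, with medians of 0.28 and 0.43. Of them 10 were called higher in total RNAPII and 26 in Ser2, and 0 and 1 lower. The same medians over all genes are 0, and 3.47% and 11.6% of all genes were called higher. Density-adjusted the medians were 0.15 and 0.13, with 57 and 52 of 68 above 0. On that scale 3 and 4 were called higher and none lower, while 2.81% and 3.99% of all genes were called higher. In the ATRi cells the medians were 0.20 and 0.43, close to the DMSO value in Ser2 and below it in total RNAPII.

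AURKB, the kinase of the chromosomal passenger complex (chr17:8204733-8210600), led the mitotic genes. It went from 21.9 to 60.1 RPM of total RNAPII and from 9.20 to 44.9 RPM of Ser2, centred 0.85 and 1.33, and its 250 promoter bases hold no CHR match. CKAP2L, a spindle protein with 2 CHR matches and 22.3% of its span shared with another gene, was at 0.65 and 1.01, and KIF23, a kinesin of the central spindle with 1, at 0.60 and 0.78. SMC4, of condensin, was at 0.49 and 1.07 and ARHGAP11A at 0.76 and 0.93, but the whole span of SMC4 and 98.7% of that of ARHGAP11A are shared with other annotated genes. Among widely used mitotic markers, CCNA2 (cyclin A2) was at 0.38 and 0.73, CCNB1 (cyclin B1) at 0.25 and 0.18, TOP2A at 0.50 and 0.80, and PLK1 at 0.04 and -0.03. These 4 were picked after their values were seen, and the group was uneven: NEK2, a centrosome kinase, was at -0.44 and -0.85.

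The replication-dependent histone genes differed between the antibodies. Of 23 measured, 13 were above the median gene in total RNAPII (median 0.11) and all 23 in Ser2 (median 0.72). In total RNAPII 0 were called higher and in Ser2 16 (69.6%), against 3.47% and 11.6% of all genes. The Ser2 minus total difference had a median of 0.69 over the 23 genes, against 0.00 over all genes, whose 5th and 95th percentiles were -0.42 and 0.47. Density-adjusted, the histone medians were -0.00 and 0.07, so on that scale the antibodies differed by less. On it 0 histone genes were called higher in either antibody, and 1 and 0 were called lower. H3C1, an H3 gene, went from 22.5 to 28.2 RPM of total RNAPII and from 8.99 to 26.7 RPM of Ser2, a difference of 0.88. H2AC20 and H4C3 had differences of 0.84 and 0.84. Histone genes are near copies of each other, and how the authors placed reads that match several copies is not given in the sources used here. In the ATRi cells the medians were -0.35 and 0.34.

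Spliceosomal snRNA genes were lower in total RNAPII. Of the 15 listed genes, 10 reached the minimum. In total RNAPII their median was -0.67, with 5 (50%) called lower and 1 (10%) higher, against 11.2% and 3.47% of all genes. The 1 called higher was RNU6ATAC (1.03), with 18 reads at 16 h and 100% of its span shared with other annotated genes. In Ser2 the median was -0.08 with none called. Density-adjusted the medians were -0.78 and -0.72, with 7 and 6 called lower, against 1.57% and 1.54% of all genes. RNU5B-1, a U5 snRNA gene, went from 18.4 to 14.7 RPM of total RNAPII and from 9.20 to 16.4 RPM of Ser2, so total RNAPII was lower and Ser2 higher in RPM. RNU5A-1 (-0.86 and -0.23) and RNU5E-1 (-0.85 and -0.11) had like values. These genes are also multicopy, and reads from their copies cannot be told apart here. The ATRi medians were further down, -1.20 and -0.71.

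Immediate early and ERK feedback genes lay above the median gene in both antibodies on the centred scale. Of 24 measured immediate early genes, 5 were called higher and 1 lower in total RNAPII (median 0.10), and 13 and 1 in Ser2 (median 0.60). Of all genes 3.47% were called higher in total RNAPII and 11.6% in Ser2. Density-adjusted the list's medians were near 0, -0.05 and 0.03. On that scale 1 and 2 of the 24 were called higher, against 2.81% and 3.99% of all genes. Called lower were 2 and 3, against 1.57% and 1.54%. MAFF, a small MAF factor, was at 0.79 and 1.19, FOSL1, an AP-1 subunit, at 0.69 and 1.23, and IER2 at 0.70 and 1.06. KLF4 and FOSB (-0.45 and -0.34), by contrast, were below the median gene. The 13 ERK feedback genes had centred medians of 0.24 and 0.55, with 4 and 6 called higher (30.8% and 46.2%) and none lower. Density-adjusted their medians were 0.25 and 0.18, with 1 and 1 called higher and none lower.

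SPRY4, a feedback inhibitor of receptor tyrosine kinase signalling, stood highest among the ERK feedback genes. With 11.6% of its span shared with another gene, it went from 36.2 to 137 RPM of total RNAPII and from 14.8 to 104 RPM of Ser2, centred 1.32 and 1.86 (1.07 and 1.22 density-adjusted). SPRY2, of the same family, was at 0.81 and 0.93, and the ERK phosphatase DUSP5 at 0.60 and 1.11. In the ATRi cells the ERK feedback medians were 0.12 and 0.56, and the immediate early medians -0.22 and 0.25. There EGR1 was at 1.02 and 1.80, SPRY4 at 0.94 and 1.39, and IER2 at 0.04 and 0.58, 3 genes picked after their values were seen. Differences between the treatments were not tested.

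Of 20 measured NF-kB, cytokine and interferon genes, 5 were called higher and 3 lower in total RNAPII (median 0.23), and 8 and 3 in Ser2 (median 0.38). Density-adjusted the medians were 0.14 and 0.10. The share called lower, 15.0% with each antibody, was near the 11.2% and 17.2% of all genes, while 3.47% and 11.6% of all genes were called higher. The 5 called higher in total RNAPII were PTGS2, RELB, NFKB2, IL6 and ICAM1, an adhesion molecule, of which ICAM1 was below the median gene in Ser2 (0.76 and -0.18). NFKB2, the p100 precursor of p52, went from 13.1 to 52.7 RPM of total RNAPII and from 6.38 to 30.2 RPM of Ser2, centred 1.39 and 1.26. RELB, its partner subunit, went from 22.3 to 92.4 RPM and from 15.5 to 72.2 RPM, centred 1.45 and 1.29. IL6, whose promoter match is shown above, was at 1.29 and 1.70, with 28.4% of its span shared with another gene, and NFKBIA, the inhibitor IkB alpha, at 0.46 and 1.13. The interferon-response genes MX1 (-0.82 and -1.41) and IFIT1 (-0.66 and -0.66) and the chemokine CXCL12 (-0.83 and -0.66) were the 3 called lower in both antibodies. Density-adjusted they were at -0.24 and -0.16, -0.56 and -0.52, and -0.95 and -0.76.

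CDKN1A, the p21 inhibitor of cyclin-dependent kinases and a p53 target, went from 32.6 to 75.9 RPM of total RNAPII and from 14.1 to 54.7 RPM of Ser2. The centred changes were 0.62 and 1.01, and 0.36 and 0.37 density-adjusted, while in ATRi cells they were -0.06 and 0.20. The ATRi cells started from a higher level at 16 h: CDKN1A held 49.1 RPM of total RNAPII at 16 h and 65.7 at 19 h there. The 23 measured p53 targets had medians of 0.12 and 0.20 in DMSO, with 1 and 7 called higher and 1 and 2 lower. In total RNAPII the share called higher, 4.35%, was near the 3.47% of all genes, and in Ser2 it was 30.4% against 11.6%. The shares called lower, 4.35% and 8.70%, were below the 11.2% and 17.2% of all genes. Density-adjusted the medians were 0.08 and 0.10. On that scale 1 and 2 of the 23 were called higher and none lower, while 2.81% and 3.99% of all genes were called higher. GADD45A, a stress-response gene, was at 0.50 and 1.30, MDM2, the ubiquitin ligase of p53, at 0.37 and 0.79, and SPATA18, lowest of the list, at -1.25 and -1.65 (-0.30 and -0.25 density-adjusted).

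Of the lists, actin and contractile genes had the highest centred medians in both antibodies. Of 27 measured actin and contractile genes, 23 in total RNAPII and 23 in Ser2 were above the median gene, with medians of 0.44 and 0.81. Of them 7 (25.9%) and 18 (66.7%) were called higher, against 3.47% and 11.6% of all genes. Density-adjusted the medians were 0.25 and 0.25, with 21 and 21 of 27 above 0. On that scale 2 and 3 were called higher and 1 and 0 lower. TPM4, a tropomyosin, went from 164 to 424 RPM of total RNAPII and from 72.7 to 339 RPM of Ser2, centred 0.78 and 1.31. MYH9, the non-muscle myosin heavy chain IIA, was at 0.67 and 1.15, MYL12A, a myosin regulatory light chain, at 0.65 and 1.39, and TAGLN, transgelin, with 55.7% of its span shared with another gene, at 0.99 and 1.20. MYH10, the IIB heavy chain, was below the median gene at -0.34 and -0.84. In the ATRi cells the medians were lower, at 0.04 and 0.31.

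Matrix genes spread widely around the median gene. Of 38 collagens and matrix genes measured, 8 were called higher and 4 lower in total RNAPII, and 15 and 3 in Ser2, with medians of 0.08 and 0.48 and density-adjusted medians of -0.01 and 0.09. The shares called higher were 21.1% and 39.5%, against 3.47% and 11.6% of all genes, and those called lower 10.5% and 7.89%, against 11.2% and 17.2%. MMP1, interstitial collagenase, went from 16.8 to 88.8 RPM of total RNAPII and from 9.43 to 71.1 RPM of Ser2, centred 1.79 and 1.95, but its whole span is shared with another annotated gene. TIMP3, an inhibitor of metalloproteinases that lies within another annotated gene, was at 0.68 and 1.35, and COL6A3, a collagen VI chain, at 0.64 and 1.03. FBLN2, fibulin 2, was lowest at -1.66 and -2.03, and -0.14 and -0.77 density-adjusted. DCN, the proteoglycan decorin and a fibroblast marker, was called lower in total RNAPII and not in Ser2, at -0.83 and -0.03. Over the 12 fibroblast markers the medians were -0.12 and 0.35, and -0.35 and -0.15 density-adjusted. The 20 YAP and TGF-beta targets had medians of -0.03 and 0.17 (density-adjusted -0.07 and 0.04), with F3, tissue factor, at 0.58 and 1.19.

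The cytosolic ribosomal protein genes show how far the 2 scales can differ. All 71 were above the median gene in Ser2 (median 0.46), and 45 in total RNAPII (median 0.04). In Ser2 16 (22.5%) were called higher, against 11.6% of all genes, and in total RNAPII 2 (2.82%), against 3.47%. Density-adjusted, 17 in Ser2 and 11 in total RNAPII were above 0, with medians of -0.16 and -0.19, and 0 were called higher in either antibody. The ATRi cells had centred medians of 0.80 in Ser2 and 0.36 in total RNAPII. Genes of the proteasome had centred medians of 0.18 and 0.27 in total RNAPII and Ser2, mitochondrial ribosomal proteins 0.02 and 0.11, respiratory chain subunits 0.06 and 0.16, and ribosome biogenesis factors 0.10 and 0.05. Density-adjusted, these medians were 0.00 and -0.04 for the proteasome, -0.08 and -0.11 for mitochondrial ribosomal proteins, -0.05 and -0.04 for the respiratory chain, and 0.02 and -0.05 for ribosome biogenesis. PSMD2, a subunit of the proteasome's regulatory particle, was the highest of its list at 1.0 and 0.99.

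Of 45 measured splicing factors, 41 in total RNAPII and 44 in Ser2 were above the median gene (medians 0.18 and 0.55). In total RNAPII 0 were called higher and in Ser2 19 (42.2%), against 3.47% and 11.6% of all genes. Density-adjusted the medians were -0.01 and 0.10, with 1 and 2 called higher. The 43 genes of RNAPII subunits and elongation factors had medians of 0.09 and 0.20 (density-adjusted 0.02 and 0.05). POLR2A, which encodes RPB1 itself, the target of both antibodies, was at 0.09 and 0.56, and ELL2, an elongation factor, at 0.63 and 0.89. Stress and metabolic genes were near or somewhat above the median gene: the unfolded protein response list had medians of 0.20 and 0.26, ATF4 targets 0.12 and 0.20, heat shock 0.25 and 0.19, and glycolysis and hypoxia 0.11 and 0.36. Density-adjusted they were 0.09 and 0.03 for the unfolded protein response, 0.05 and -0.03 for ATF4 targets, 0.03 and -0.02 for heat shock, and 0.09 and 0.06 for glycolysis and hypoxia. Within them HSPA5, the endoplasmic reticulum chaperone BiP, was at 0.70 and 0.90, and PFKFB4, a regulator of glycolysis, at 0.90 and 0.93. Cholesterol synthesis genes (-0.07 and -0.20), clock genes (0.01 and -0.16) and the 164 zinc finger genes of chromosome 19 (-0.12 and -0.27) had Ser2 medians below 0, and density-adjusted medians between -0.08 and 0.05.

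**Figure D3:**
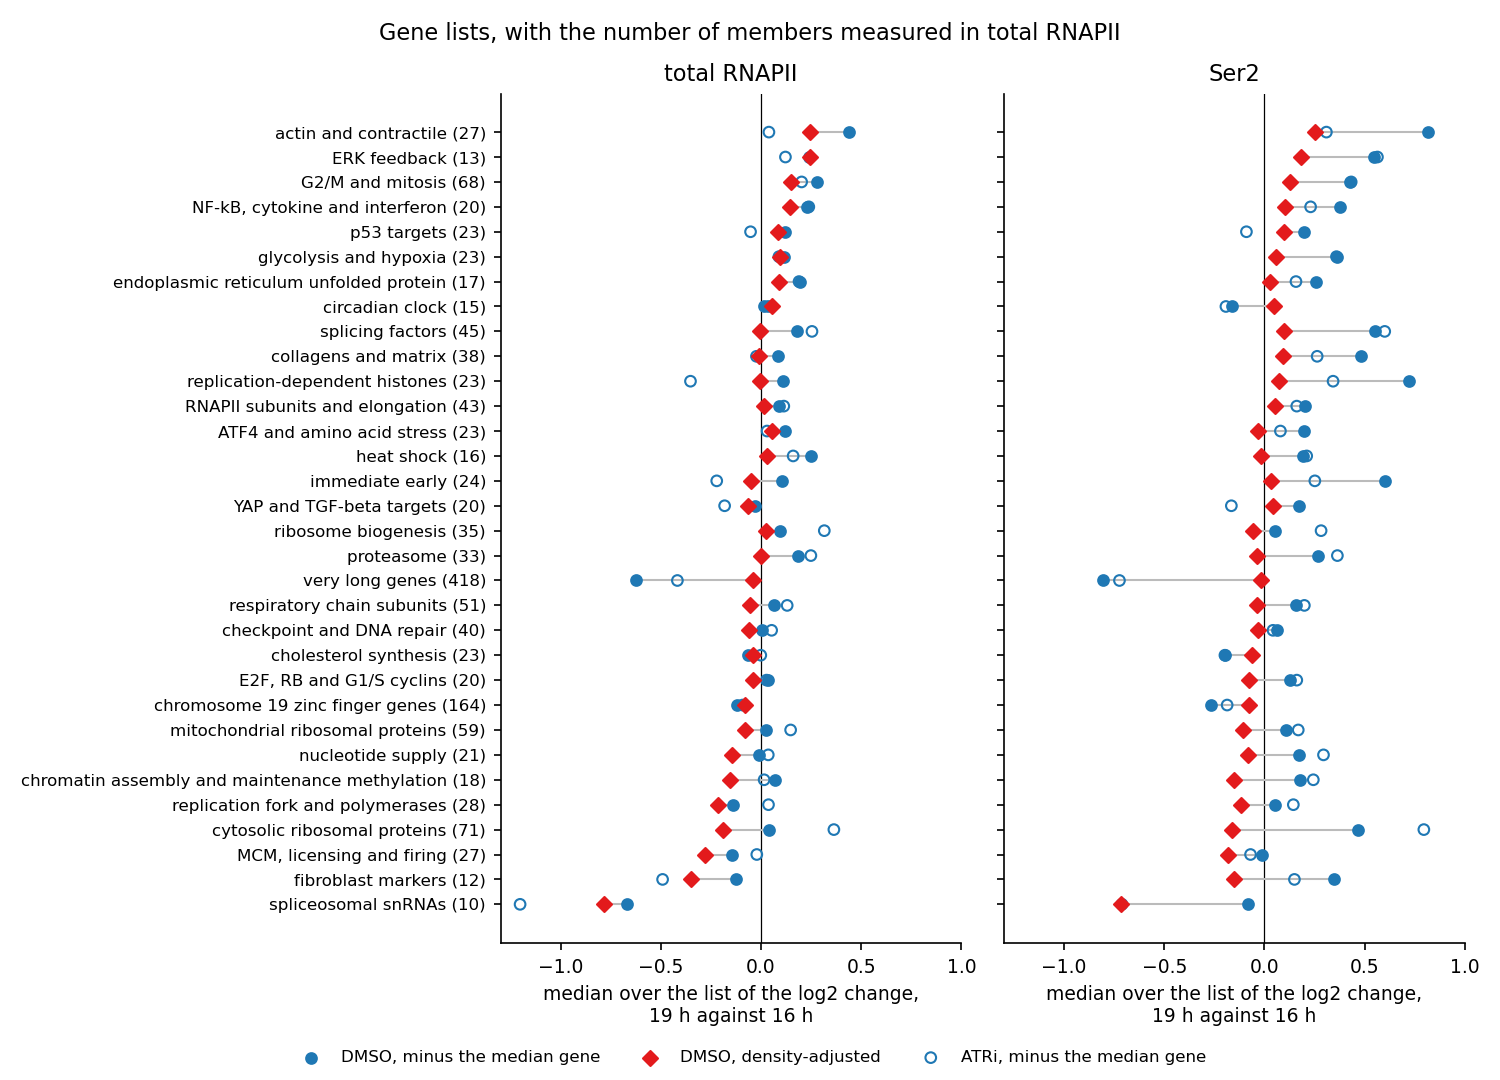
Median log2 change from 16 h to 19 h over each gene list with at least 5 measured members, for total RNAPII (left) and Ser2 (right). Filled blue points are centred changes in DMSO, red diamonds the same after density adjustment and open blue points centred changes in ATRi cells; actin and contractile genes have the highest centred medians in DMSO, 0.44 and 0.81, and very long genes are at -0.62 and -0.81.

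The genes with the lowest Ser2 minus total differences held few reads, 57 to 206 per library at 16 h. ZFAND5 (0.86) and NUDT16L1 (0.87) joined the histone genes at the upper end. ZFAND5, a zinc finger protein linked to the proteasome, went from 77.7 to 131 RPM of total RNAPII and from 31.8 to 122 RPM of Ser2. At the lower end were PIF1, a DNA helicase (-1.01), TMEM145 (-1.0), CCDC163 (-0.98), ZNF74 (-0.97) and SLC16A13 (-0.97). PIF1 went from 4.12 to 7.44 RPM of total RNAPII and from 3.55 to 3.81 RPM of Ser2, so that its counting intervals are wide, -0.06 to 0.61 and -1.17 to -0.43 around centred changes of 0.20 and -0.81.

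The ATRi pair shares no library with the DMSO pair and moved in the same way over most genes. Across genes, the centred changes of the 2 treatments had a Pearson correlation of 0.85 over 12024 genes in total RNAPII and 0.93 over 11972 in Ser2, and density-adjusted 0.71 and 0.75, as a description over genes that share the trend with density. The 2 changes of a gene differed by a median of 0.15 in total RNAPII and 0.13 in Ser2, and by more than 0.47 and 0.45 in 5% of genes. Of the genes called in DMSO, 1746 of 1762 in total RNAPII and 3429 of 3447 in Ser2 lay on the same side of the median gene in ATRi cells. Density-adjusted, 509 of 524 and 644 of 659 did. The density-adjusted correlations and counts include chromosome X, whose values on that scale are not comparable with those of other chromosomes. The ATRi cells are another condition and not a replicate of the DMSO cells.

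Among the untreated and DMSO libraries, EGR1, PTGS2 and AURKB had their highest values at 19 h. Relative to the median gene of its own library, EGR1 in total RNAPII was at 0.42 at 14 h (a library with no treatment name), -1.14 at 16 h, 0.75 at 19 h and -0.76 at 22 h, on a log2 scale. PTGS2 was at 1.01, 0.14, 1.66 and 0.98 over the same hours. AURKB was at -0.65, -0.17, 0.75 and 0.37. In total RNAPII EGR1 and PTGS2 thus had their lowest value at 16 h, and AURKB at 14 h. In Ser2 EGR1 was at 0.22, -1.80, 0.54 and -1.249, PTGS2 at 1.0, -0.15, 1.76 and 0.42, and AURKB at -0.72, -0.73, 0.62 and 0.22, so all 3 were highest at 19 h and lowest at 16 h. In total RNAPII MCM6 went from 0.50 and 0.59 to -0.38 and -0.31, and E2F1 from -0.21 and 0.04 to -0.62 and -1.66, both lower at the 2 later hours than at the 2 earlier ones. The share of reads in genes was 43.4% at 14 h and 42.8% at 22 h in total RNAPII, against 72.0% at 19 h.

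**Figure D4:**
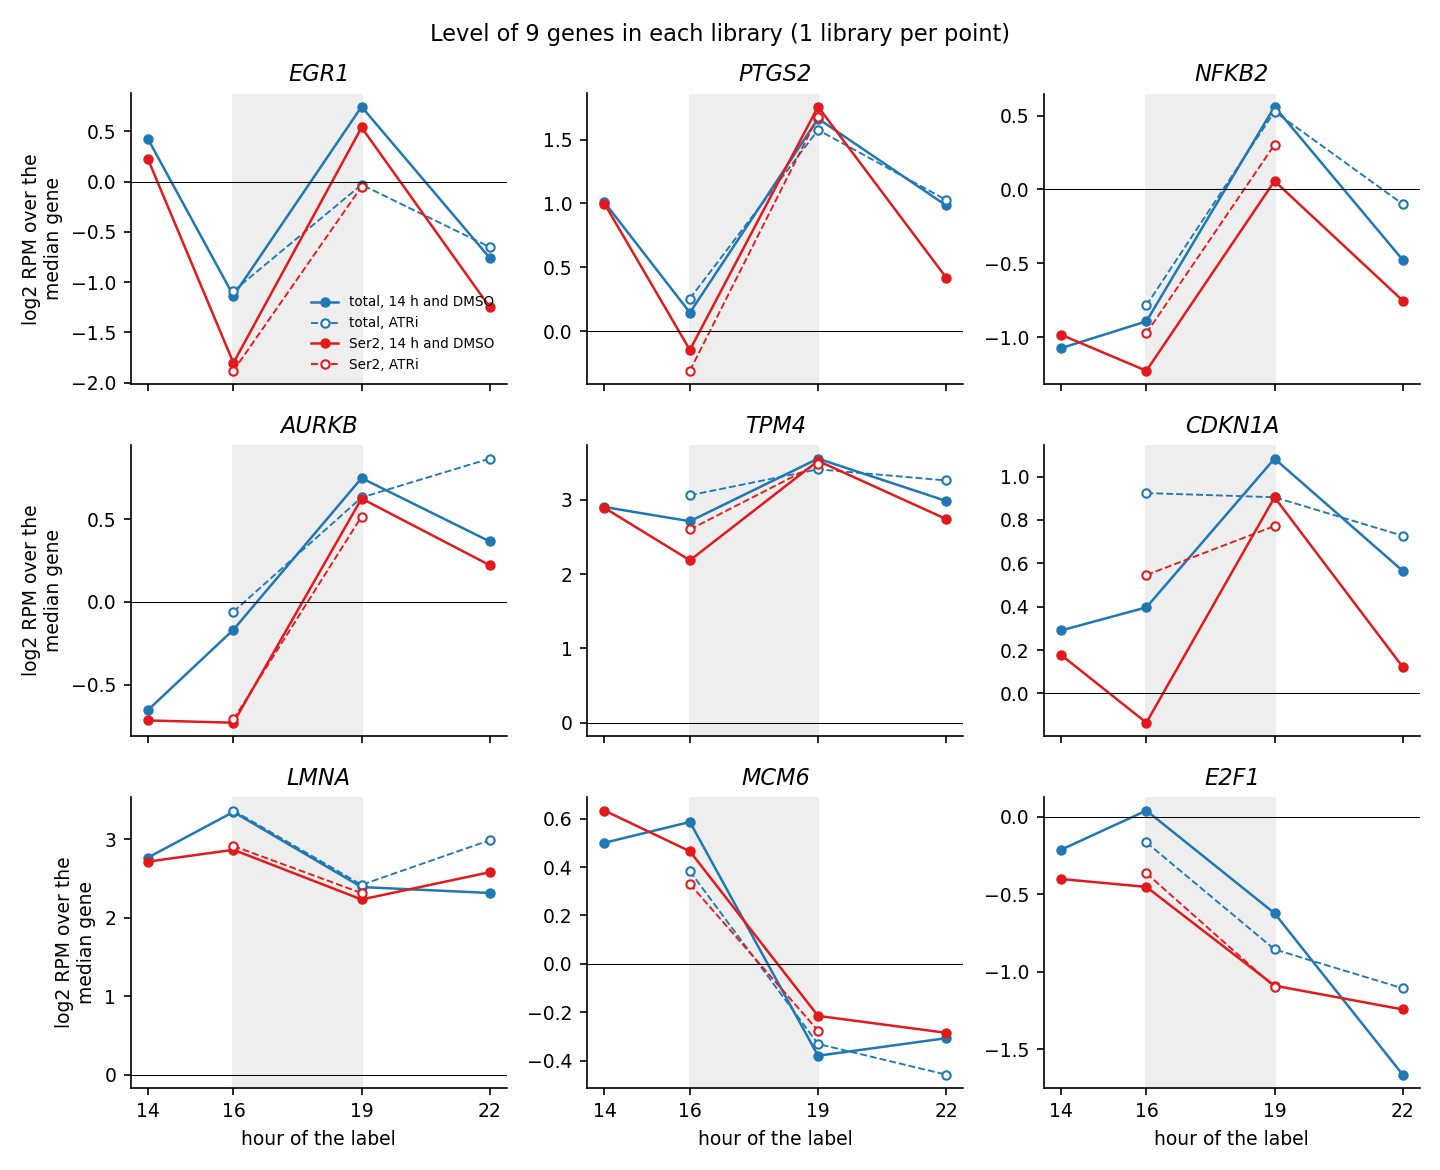
Level of 9 genes relative to the median gene of the same library (log2, y axis) at 14, 16, 19 and 22 h (x axis), with 14 h and DMSO as filled points and solid lines, ATRi as open points and dashed lines, and grey shading from 16 h to 19 h. EGR1 in total RNAPII is at -1.14 at 16 h and 0.75 at 19 h in DMSO; the Ser2 22 h ATRi library is not plotted.

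Chromosomes differed little. Median centred changes ran from -0.13 on chromosome 18 to 0.11 on chromosome 17 in total RNAPII, and from -0.16 to 0.12 on the same chromosomes in Ser2. Chromosome X, with 342 genes, was at 0.03 and 0.02 but at 0.34 and 0.58 after density adjustment, so density-adjusted values of its genes are not comparable with those of other chromosomes. None of the 12 genes at either end of the ranking of densely read genes lies on it, and of the 12 lowest genes over all densities REPS2 does. Some neighbouring genes shared a direction: beside TPP1, MOCS2 and LMNA, the genes ZNHIT2 (0.54 and 0.93), MRPL49 (0.50 and 0.60) and TM7SF2 (0.54 and 0.54) lie within 5 kb of the ribosomal gene FAU, which was at 0.67 and 0.76, and MRPL52 (0.82 and 0.62) lies 1520 bp from MMP14.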

How the data were processed

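Chromatin from BJ hTERT cells was precipitated for total or Ser2 RNAPII and sequenced. The deposited values are RPM per gene on hg38. Bowtie2 2.3.3.1 and SAMtools 1.4 are named in the submitters' processing notes. Strand handling, duplicates and reads that match several places are not given in the sources used here. All values of the 14 libraries were whole reads, within 0.01 read, once multiplied by the library's depth (17181179 to 62368915 reads), so depth and counting error were recovered from them. A count of 3 reads was 0.0784 to 0.113 RPM in the 4 DMSO libraries.

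Changes were computed with a pseudocount of 0.5 RPM after a minimum mean of 1 RPM, centred on the median gene, and again with the trend over log read density removed (density-adjusted). Per-gene 95% intervals are exact Clopper-Pearson intervals on the reads and cover counting error only. The calculation (Python, pandas and numpy) was tested on simulated data. Positions matched 10723 of 12425 genes (86.3%) to RefSeq symbols on GRCh38.p14, from which promoter sequences also come.

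Members, lists and tests were chosen with earlier results of these data known. Genes were named by rule: the 10 highest and 10 lowest per antibody that kept a log2 change of 0.32 after density adjustment, held 2 RPM and shared under 10% of their span, up to 4 members per list, the 5 highest and 5 lowest differences between antibodies, POLR2A and CDKN1A, and the 12 densely read genes at each end. Neighbours within 5 kb follow by distance. KIF23, NFKBIA, CCNA2, CCNB1, TOP2A, PLK1, NEK2, FOSB, MX1, IFIT1, CXCL12, ICAM1, TFDP2, MDM2, COL6A3, TIMP3 and MYH10 were named after their values were seen. Alternatives were no centring, quantile normalization, background subtraction, other pseudocounts, minimums and folds.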

Additional observations from a re-analysis of the deposited data

Results flagged for a closer look

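Gene lists were flagged where their median change from 16 h to 19 h lay at least 0.05 to opposite sides of 0 in DMSO and ATRi cells, in both antibodies. The difference was not tested, and the 2 treatments share no library. The median of the 23 p53 targets was 0.12 in DMSO and -0.052 in ATRi cells in total RNAPII, and 0.20 and -0.090 in Ser2. Density-adjusted, these medians were 0.085 and -0.10 in total RNAPII, and 0.10 and -0.27 in Ser2. The 71 cytosolic ribosomal protein genes differed in sign only on the density-adjusted scale, with -0.19 in DMSO and 0.23 in ATRi cells in total RNAPII, and -0.16 and 0.31 in Ser2.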

How the results depend on the processing

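No paired analysis was possible because the labels give no replicate numbers and each group is 1 library, and for the same reason no library could be left out and no count test could be run on the recovered reads. Counts of called genes stayed within 1.5 times the main counts under quantile normalization, pseudocounts of 0.1 and 1 RPM, no minimum and a minimum of 5 RPM. Without centring, 6005 genes were higher and 345 lower in total RNAPII, 8492 and 277 in Ser2, and 5874 and 231 in both. Density-adjusted, with chromosome X included, 189 were lower in total RNAPII, 478 higher and 185 lower in Ser2, and 190 higher and 88 lower in both. With background subtracted, 665 were higher and 808 lower in total RNAPII, 873 higher in Ser2 and 606 lower in both. With a call at a log2 change of 0.32 the counts were 1743 and 2619 in total RNAPII, 3171 and 3474 in Ser2, and 1441 and 2356 in both, and at 2-fold 50 and 508, 210 and 920, and 43 and 480. For lists, sign changes are given only where the centred median lay at least 0.2 from 0, and all of these were in Ser2. Density-adjusted, they were -0.16 for cytosolic ribosomal proteins, -0.037 for the proteasome and -0.15 for fibroblast markers. With background subtracted they were -0.064 for cytosolic ribosomal proteins and -0.085 for fibroblast markers. Without centring they were 0.63 for chromosome 19 zinc finger genes and 0.10 for very long genes. Smaller list medians that changed sign, such as the density-adjusted one of nucleotide supply, are not repeated here. For single genes, sign changes are listed only for genes covered by the naming rules and called at 1.5-fold on the centred scale. Genes short of that call changed sign too, such as KLF4, MCM3 and S100A10 in Ser2 without centring. Genes called lower in Ser2 that were above 0 without centring were CCDC163 0.23, CD248 0.16, DDX10 0.0060, E2F1 0.24, FANCM 0.15, HSD17B7 0.026, LMNA 0.24, MCM6 0.20, MSMO1 0.20, NBPF1 0.23, NDUFA9 0.26, ORC4 0.17, OSR2 0.30, PIF1 0.088, PPAT 0.24, RAD51C 0.17, SCD 0.030 and SLC16A13 0.29. Density adjustment turned, in Ser2, CCND3 to 0.12, FEN1 to -0.0047, H3C1 to -0.017 (-0.066 with background subtracted), NSDHL to 0.30, PMEPA1 to 0.14, RAD51C to 0.019, SMAD6 to 0.012 and TMEM145 to 0.17, and in total RNAPII CRY1 to 0.053, LAMA3 to 0.018, PMEPA1 to 0.25, ZNF470 to 0.18 and ZNF578 to 0.066. NSDHL lies on chromosome X, whose density-adjusted values are not comparable with those of other chromosomes. Among genes short of the call in Ser2, the histone genes H2AC20 and H4C3 turned to -0.13 and -0.058. The cause was not tested. The ranking of densely read genes and the list values without overlapping genes were added after seeing the data.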
